A study of Mus musculus with 26 samples.

Results

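Testis RNA of the knock-in line 10xBulge was compared with testis RNA of the knock-in line 10xPerf, across all genes. Both lines carry 10 tandem target sites for piR-A, an abundant piRNA of pachytene spermatocytes, in the 3′UTR of Ythdc2, and they differ in how those sites pair with piR-A. In 10xPerf the sites are complementary to the whole piRNA, and in 10xBulge they are mismatched at piRNA positions 10 and 11, on either side of the bond that a PIWI protein cuts. The comparison took 4 of the 26 samples of the series, 2 libraries of each line, and 23782 of the 51124 genes of the deposited table passed the filter on low values. Libraries N3 and N4 were from 10xPerf, libraries N5 and N6 from 10xBulge, and wild-type libraries N1 and N2 entered the same fit and served as the background. Each library was made from RNA of adult whole testes, with ribosomal RNA depleted before a stranded library was made. The labels do not name the mouse of a library, and each was assumed to come from a different mouse. The knock-in alleles were made with CRISPR/Cas9 in the Ythdc2 gene of B6D2F1/J embryos. That hybrid descends from the inbred strains C57BL/6J and DBA/2J. The labels give neither the zygosity nor the exact age of the sequenced mice, while the study describes its lines as kept homozygous. The only allele named for these mice is the one in Ythdc2. With 1 line for each kind of site, the effect of the sites and any other difference between the lines cannot be told apart.

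Sperm form in the seminiferous tubule from spermatogonia, which divide by mitosis, through spermatocytes, which carry out meiosis, to haploid round spermatids and then elongating spermatids. Spermatids build the acrosome and the tail, and late in this process transition proteins and then protamines take the place of most histones. Sertoli cells line the tubule and support the germ cells, while Leydig cells between the tubules make testosterone and share that space with macrophages. Pachytene piRNAs are short RNAs that guide the PIWI proteins MILI and MIWI to RNA targets, and YTHDC2 is an RNA helicase that germ cells need to carry on with meiosis.

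The values are normalized read counts, which are read counts per gene scaled between libraries by the authors. The difference for a gene is given as a log2 fold change, 10xBulge minus 10xPerf, of the normalized count plus a pseudocount of 1, tested with limma over all genes at an adjusted p under 0.1. With 2 libraries a line an exact permutation test of a single gene cannot go below 0.33 (two-sided). Of the 23782 genes tested, the libraries of the lines did not overlap in 7306 with higher and 8405 with lower values in 10xBulge. Such separation was therefore common. The libraries held approximately 41100000 to 61600000 reads, and 3 reads were worth 2.73 to 3.63 normalized counts. Log2 values correlated at r = 0.956, 0.958 and 0.951 across genes within wild type, 10xPerf and 10xBulge, and the first principal component, with 72.7% of the variance, set N5 and N6 apart from the other 4 libraries. A small cytoplasmic RNA, Metazoa_SRP, took 5.56% to 12.8% of the normalized counts of a library.

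Ythdc2 itself, the gene that carries the sites, did not pass the test. Ythdc2 (ENSMUSG00000034653, chromosome 18) was at 1334 and 1136 normalized counts in the 10xPerf libraries and at 1202 and 2458 in the 10xBulge libraries. Wild type lay at 827 and 2412, so the libraries of the 3 genotypes overlapped. Its log2 fold change was 0.48 ± 0.57 (SE, n = 2 and 2), with a 95% interval from -0.80 to 1.77 and an adjusted p of 0.567 in limma.

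Across all genes, 3077 (12.9%) were higher and 5729 (24.1%) were lower in 10xBulge, and the median over the tested genes was -0.07 on the log2 scale. The lower genes had the larger changes. A difference of at least 16-fold on the log2 scale was found for 2303 lower genes and for 81 higher genes. In 623 of the lower genes both 10xBulge libraries were at 0, and in 48 of the higher genes both 10xPerf libraries were at 0. Wild type lay nearer to 10xPerf for 7748 of the called genes, including 5238 of the lower ones, and nearer to 10xBulge for 1058. The split between higher and lower genes depended on the scaling: with library totals 5122 were higher and 5160 lower (49.8% of the calls higher), and with 18 widely expressed genes as the reference 755 were higher and 5096 lower (12.9% of the calls higher). It depended on the filter too, which a gene could pass through wild type and 10xPerf alone. When every library had to hold at least 10, the split was 2850 higher and 3064 lower (48.2% of the calls higher). It also depended on library N3, without which 418 genes were higher and 3730 lower, the remaining 10xPerf library being assumed to vary like the other groups.

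**Figure D1:**
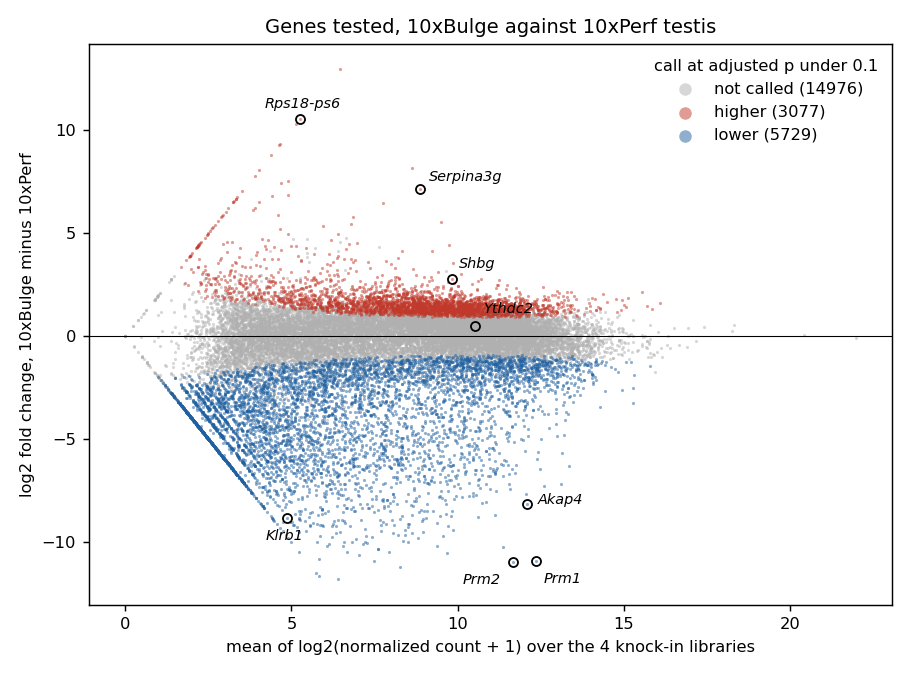
Log2 fold change of each of the 23782 genes tested (10xBulge minus 10xPerf, y axis) against its mean level over the 4 libraries (x axis, log2 of normalized count plus 1). Genes called higher (3077) and lower (5729) at an adjusted p under 0.1 are coloured, and the lower genes reach changes of over 10 on the log2 scale while few higher ones do.

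The lists of genes described next name cell types and functions of the testis. For each, the number of tested members called in either direction is given with the median log2 fold change of the list. These are to be read against 12.9% higher, 24.1% lower and a median of -0.07 over all genes. Protein-coding genes alone, the class of most list members, had 16.2% higher, 18.1% lower and a median of 0.17. Members named as examples beyond those that a rule selected were chosen after their values were seen. In whole testis, fewer cells of a type and less RNA per cell cannot be told apart.

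**Figure D2:**
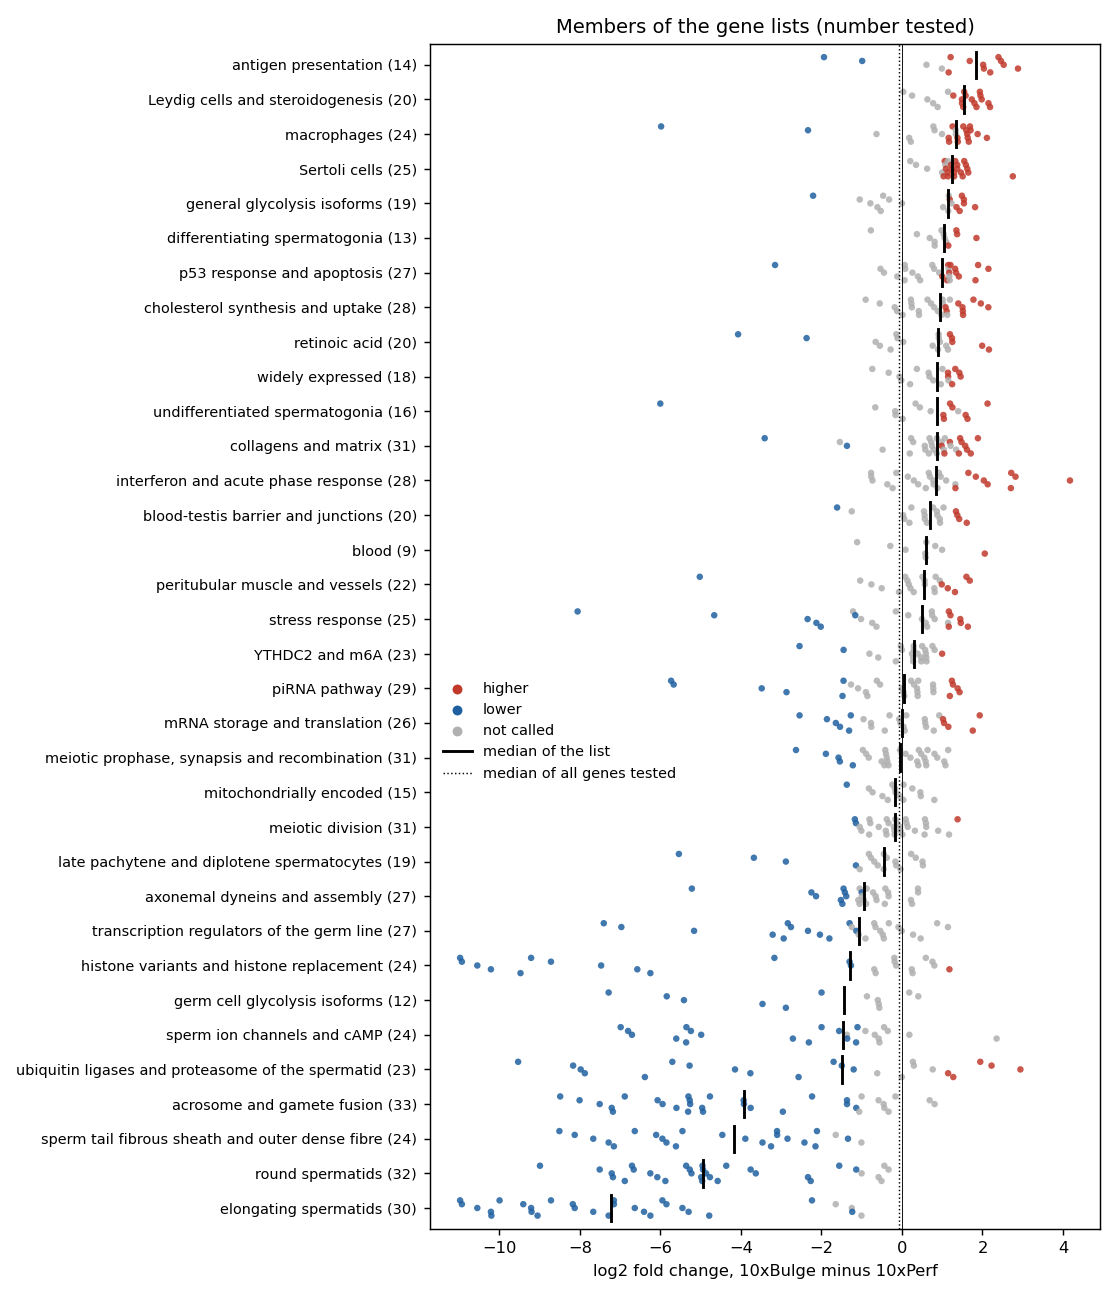
Log2 fold changes (10xBulge minus 10xPerf, x axis) of the tested members of each gene list except that of the epididymis, coloured as called higher, called lower or not called, with the list median as a bar and the median of all genes as a dotted line. Spermatid lists lie far to the lower side, with medians of -4.95 for round and -7.22 for elongating spermatids, and Sertoli, Leydig and macrophage lists lie to the higher side.

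Genes of elongating spermatids had the lowest median of all the lists, -7.22: 27 of 30 fell and none was called higher. At the head stood the proteins that package sperm DNA. Prm1, protamine 1, was at 212210 and 253310 normalized counts in the 10xPerf libraries and at 187 and 74.2 in the 10xBulge libraries, against 283140 and 200780 in wild type. The libraries of 10xPerf and wild type lay in 1 range, and both 10xBulge libraries lay far under it. Its log2 fold change was -10.93 ± 0.51 (SE, n = 2 and 2; adjusted p = 3.32e-06, limma), and the mean count was 1782-fold lower. Prm2, protamine 2, went from 135180 and 155410 to 114 and 44.3, a log2 fold change of -10.97. The transition proteins, which precede the protamines on DNA, fell to a like degree. Tnp1 went from 29823 and 33857 to 26.4 and 15.5 (log2 fold change -10.55), and Tnp2 from 100960 and 80756 to 99.5 and 57 (log2 fold change -10.21). RNA of these 4 genes was therefore still counted in both 10xBulge libraries, above the value of 3 reads.

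The other called members of the elongating spermatid list spanned -10.20 to -1.23. Cabs1, a calcium-binding protein of spermatids, was at 22995 and 22674 in 10xPerf and at 14.6 and 23.3 in 10xBulge. Spem1 and Spem2, which act in the shedding of spermatid cytoplasm and the shaping of the head, had log2 fold changes of -9.20 and -9.40. Fscn3, a testis fascin that bundles actin, had -9.99. The smallest called change in the list was that of Meig1, a gene of manchette assembly, at -1.23. Of the members that did not pass the test, Tekt4 was at -1.64, Cep131 at -1.24 and Ropn1l at -1.01. The summed normalized count of the whole list was 1117633 and 1291297 in 10xPerf and 51095 and 29727 in 10xBulge, and no member was at 0 in both 10xBulge libraries.

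Round spermatid genes fell as well, at 27 of 32 members and with a median of -4.95. Tssk6, a testis kinase of spermatids, was at 8775 and 13844 in 10xPerf and at 42.2 and 9.88 in 10xBulge, a log2 fold change of -8.99 ± 0.61 (SE; adjusted p = 8.92e-06, limma). The related kinases Tssk2, Tssk3, Tssk1 and Tssk4 had -6.66, -6.25, -4.87 and -4.36. Izumo1, the sperm protein that binds JUNO on the egg, was at 2381 and 2090 against 81.5 and 80.3 (log2 fold change -4.77). Its relatives Izumo2 and Izumo3 fell further, by 7.51 and 6.88 on the log2 scale. In each of these genes the lowest 10xPerf library stood well over the highest 10xBulge library.

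Other round spermatid genes had smaller changes or did not pass. Acr, which encodes acrosin, was called with a log2 fold change of -1.13, and Spata16, a gene of acrosome formation, with -1.56. The 5 members that did not pass the test were Izumo4 at -1.0, Spink2 at -0.58, Dpy19l2 at -0.51, Zpbp2 at -0.44 and Zpbp at -0.33. They were named after their values were seen. Zpbp, an acrosomal protein that binds the zona pellucida, was at 9202 and 8582 normalized counts in 10xPerf and at 4586 and 10868 in 10xBulge, so that the lines overlapped. Spink2, an inhibitor of acrosomal proteases, was at 12375 and 13594 against 9140 and 8234. Its 95% interval ran from -1.44 to 0.28. The summed count of the whole round spermatid list was 239014 and 274253 in 10xPerf and 54215 and 49444 in 10xBulge. In all 27 called genes of this list and all 27 of the elongating list, wild type lay nearer to 10xPerf than to 10xBulge.

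**Figure D3:**
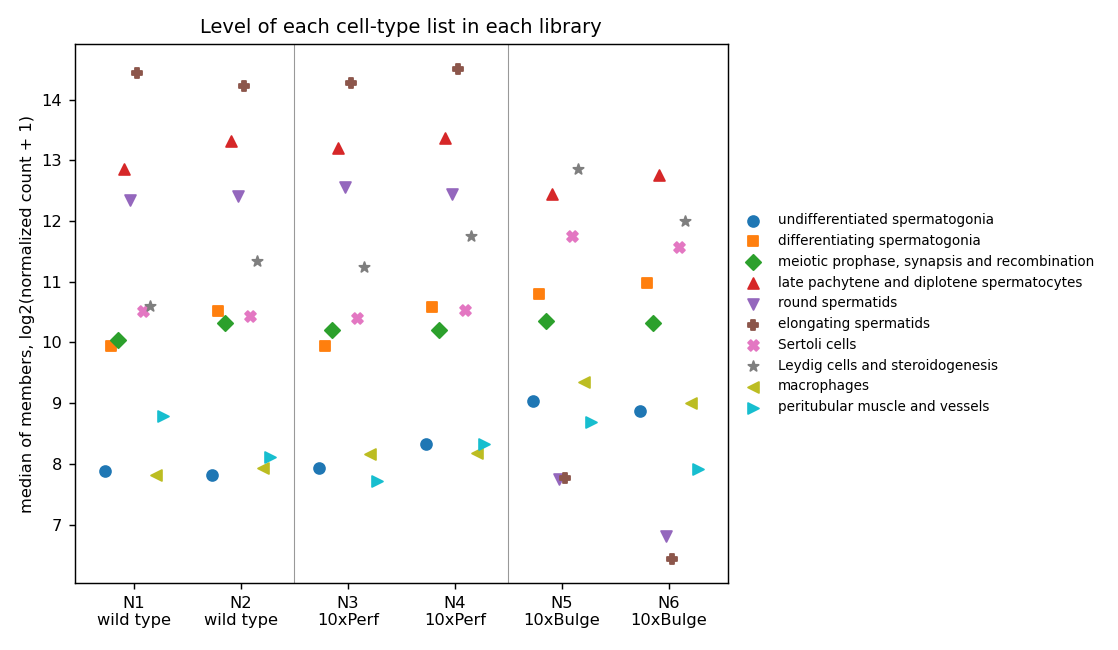
Median level of the tested members of 10 cell type lists in each of the 6 libraries (log2 of normalized count plus 1). The elongating spermatid list lies at 14.3 and 14.5 in 10xPerf and at 7.77 and 6.43 in 10xBulge, the meiotic prophase list between 10.0 and 10.4 in every library, and the Sertoli list at 10.4 and 10.5 in 10xPerf and at 11.8 and 11.6 in 10xBulge.

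Genes of histone variants and histone replacement fell in 13 of 24 cases, with 1 higher and a median of -1.28. Apart from the protamines and transition proteins, the largest falls were in histones of the spermatid: H2al2a, a short H2A variant that opens nucleosomes for the transition proteins, was at 4672 and 6396 in 10xPerf and at 9.15 and 4.83 in 10xBulge (log2 fold change -9.47). H1f7, a linker histone of spermatids, was at 17218 and 19724 against 69.3 and 26.3 (log2 fold change -8.72), and H2bl1, another spermatid histone, had -7.47. Chd5, a chromatin remodeller that acts in histone removal, had -6.57. Other members had smaller values. Brdt, a bromodomain protein that binds acetylated histones, had -1.30 (adjusted p = 0.0616, limma), Psme4, a proteasome activator for acetylated histones, had -1.27 (adjusted p = 0.0857, limma), and the testis histones H2ac1 and H2bc1 were at 0.59 and 0.76 without passing. Sirt6, a deacetylase, was the higher member, at 168 and 248 against 492 and 437 (log2 fold change 1.18, adjusted p = 0.0608, limma), and it was not called without N3, N4 or N5.

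Structural genes of the sperm tail were called lower in 22 of 24 cases, with a median of -4.17, including those of the fibrous sheath and the outer dense fibres. Akap4, the main fibrous sheath protein, was at 64456 and 83022 in 10xPerf and at 346 and 196 in 10xBulge, a log2 fold change of -8.13 ± 0.49 (SE; adjusted p = 5.59e-06, limma) and a mean 272-fold lower. Oaz3, an antizyme of spermatids, went from 83174 and 131520 to 864 and 622, and Smcp, a protein of the mitochondrial sheath, from 63617 and 57602 to 484 and 182. Odf1 and Odf3, of the outer dense fibres, had -6.63 and -6.10. The tektins Tekt2, Tekt5, Tekt1 and Tekt3, filament proteins within axonemal microtubules, changed by less, from -3.89 to -2.11.

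Of the axonemal dyneins, the motors of the tail, and their assembly factors, 9 of 27 tested members were called lower, none higher, and the median was -0.94. The count of lower calls was 2 without N3, 3 without N4, 13 without N5 and 6 without N6. Dnah3, an inner arm heavy chain, was far from the rest, at 8442 and 7292 in 10xPerf and at 265 and 166 in 10xBulge (log2 fold change -5.22). The next largest falls were -2.25 for the heavy chain Dnah5 and -2.13 for Lrrc6, an assembly factor. Dnah8, an outer arm heavy chain of sperm, was at 122180 and 115550 against 89970 and 87042. The lines did not overlap in this gene, but the log2 fold change of -0.43 did not pass (95% interval -1.53 to 0.68). Dnah17, another outer arm chain, was at -0.88 and did not pass either.

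Acrosome and gamete fusion genes fell in 24 of 33 cases, with a median of -3.93. Prss55, a sperm serine protease, was at 4286 and 5323 in 10xPerf and at 18.8 and 7.97 in 10xBulge (log2 fold change -8.49), and Cylc2, a cylicin of the sperm head, was at 7201 and 2520 against 17.8 and 13.6 (log2 fold change -8.01). Eqtn, an acrosomal membrane protein, had -6.07, and the hyaluronidases Hyal5 and Spam1 had -5.60 and -5.31. Spaca6, Tmem95, Dcst1 and Dcst2, all needed for sperm and egg to fuse, had -3.92, -2.96, -3.93 and -5.26. Adam2, a surface protein already made in spermatocytes, was at -0.45 and did not pass.

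Ion channel genes of the sperm showed a division within 1 complex. CatSper, the calcium channel of the sperm tail, has pore subunits and auxiliary subunits. The pore genes Catsper1, Catsper3 and Catsper4 had log2 fold changes of -6.70, -5.36 and -4.99, and Catsper2, the remaining pore gene, had -1.56. Catsper3 was at 1770 and 2429 in 10xPerf and at 51.2 and 47.9 in 10xBulge. The auxiliary genes Efcab9 and Tmem249 fell by 5.60 and 6.99. Catsperd and Catsperg1 were called at -1.14 and -1.10, while 5 further auxiliary CatSper genes of the list, from -1.37 to -0.35, did not pass. Atp1a4, the sodium pump of sperm, had -6.80, and Kcnu1 and Slc9c1, a potassium channel and a sodium and proton exchanger, had -2.71 and -2.31. In all, 15 of 24 members of the list fell, none was called higher, and the median was -1.46.

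Ubiquitin and proteasome genes moved in both directions. Of 23 members 13 were lower and 5 were higher, and the median was -1.49. The lower ones included ligases and adaptors of spermatids. Ubqlnl, a ubiquilin of the testis, was at 10552 and 10767 in 10xPerf and at 12.5 and 14.3 in 10xBulge (log2 fold change -9.53), and Asb17, Rnf133, Rnf148 and Klhl10, all parts of ubiquitin ligases, had -7.88, -7.98, -8.17 and -5.70. The 5 higher members were the immunoproteasome subunits Psmb8, Psmb9 and Psmb10 and the proteasome activator genes Psme1 and Psme2, all of which interferon induces in many tissues. Psmb8 was at 22.1 and 26 in 10xPerf and at 237 and 154 in 10xBulge, with wild type at 73.5 and 53.2 (log2 fold change 2.94 ± 0.49, SE; adjusted p = 0.00172, limma). Psmb9, Psme1, Psme2 and Psmb10 had 2.23, 1.95, 1.28 and 1.15. The higher calls numbered 1 without N3 and 2 without N4 or N5, and the lower ones 10 to 12 with any 1 library left out.

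Glycolysis genes differed by isoform. The germ cell list had 6 lower members of 12 and a median of -1.43, while the list of general isoforms had 7 higher and 1 lower of 19 and a median of 1.15. Gapdhs, the glyceraldehyde-3-phosphate dehydrogenase of the sperm tail, was at 71827 and 83150 in 10xPerf and at 896 and 273 in 10xBulge (log2 fold change -7.28). Aldoart1, an aldolase of spermatids, went from 4078 and 4256 to 106 and 48.2. Pgk2, the phosphoglycerate kinase that germ cells use once the X chromosome is silent, went from 29128 and 42849 to 5877 and 3904 (log2 fold change -2.88), and its X-linked counterpart Pgk1 from 532 and 1144 to 2504 and 1919 (log2 fold change 1.49, adjusted p = 0.04, limma). The lines did not overlap in either gene, as in many genes tested, and the directions were opposite. Pdha1, Pgam1 and Slc2a1, for pyruvate dehydrogenase, phosphoglycerate mutase and a glucose transporter, had 1.54, 1.54 and 1.43. Ldhc, the lactate dehydrogenase of spermatocytes and spermatids, was at -0.60 and did not pass. Among the general isoforms no member was called higher without N3 or with the widely expressed genes as reference, while 3 were without N5 and 11 without N6. Of these isoforms 3 were lower without N5 and none without N3.

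**Figure D4:**
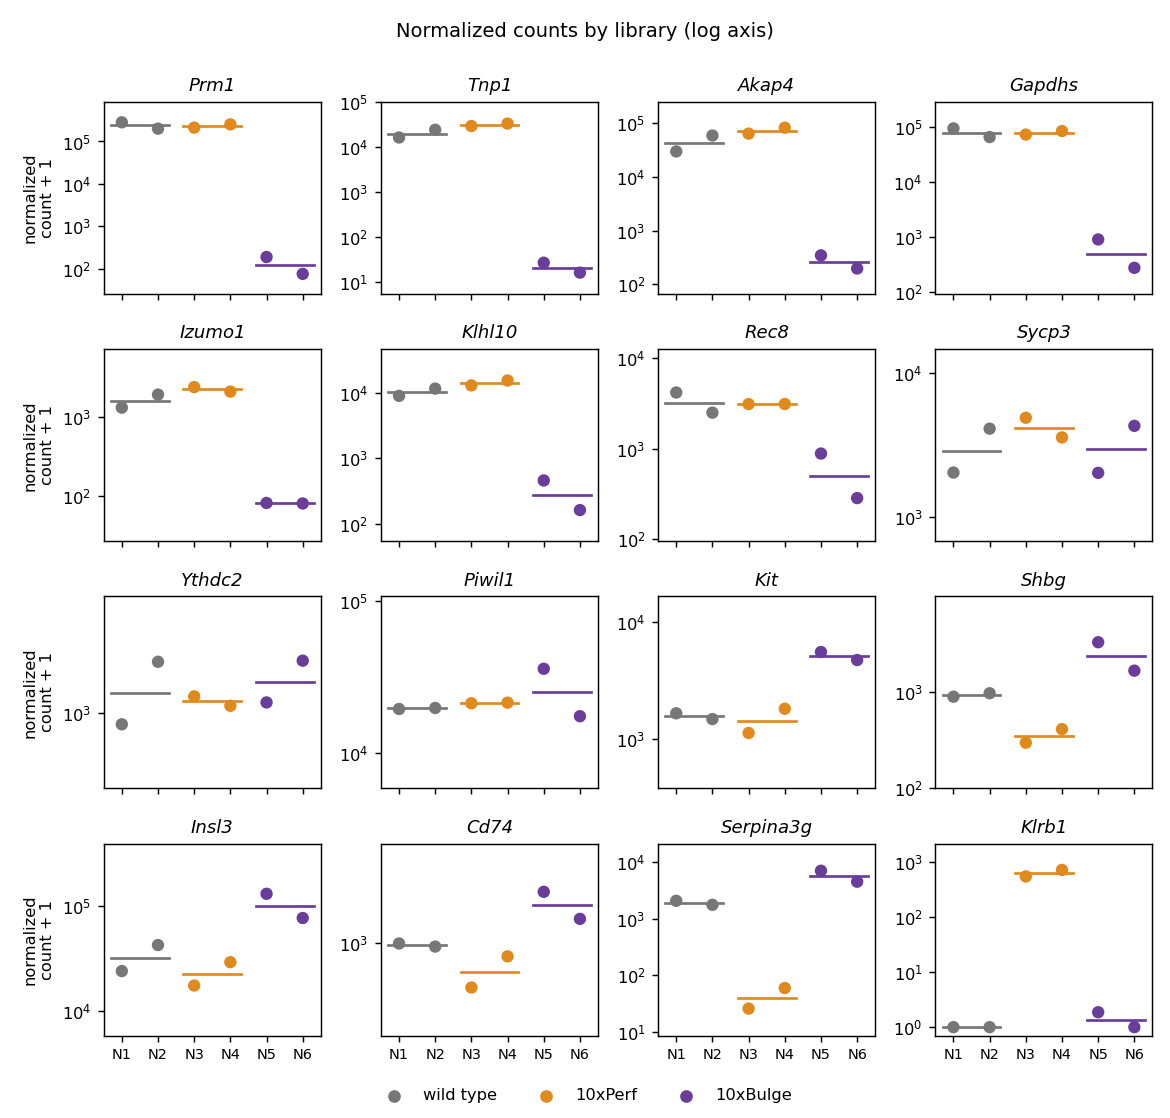
Normalized counts plus 1 (log axis) of 16 genes in each of the 6 libraries, with lines at the geometric mean of each genotype. Prm1, Tnp1, Akap4, Gapdhs, Izumo1 and Klhl10 fall in N5 and N6, Ythdc2, Sycp3 and Piwil1 overlap between the lines, and Serpina3g and Klrb1 separate N3 and N4 from all other libraries.

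Among the transcription regulators of the germ line, 12 of 27 were lower and none higher, with a median of -1.07. Crem, the cAMP-responsive regulator that turns on many spermatid genes, was at 7586 and 5872 in 10xPerf and at 1209 and 1449 in 10xBulge (log2 fold change -2.33 ± 0.43, SE; adjusted p = 0.00301, limma). Fhl5, the coactivator known as ACT that works with CREM in spermatids, fell from 5719 and 7473 to 44.7 and 58.6, a log2 fold change of -6.97. Spz1, a helix-loop-helix protein of spermatids, was at 38941 and 40262 against 282 and 192 (log2 fold change -7.41). Of the RFX factors, which bind the promoters of cilium genes, Rfx3, Rfx1 and Rfx4 had -3.21, -2.83 and -2.76, and Rfx2, an activator of spermatid genes, was at -0.90 and did not pass. Sox30, an activator of round spermatid genes, had -1.80. Hsf5 and Zfp541, regulators of the spermatocyte stage, were at 0.28 and -0.66 and did not pass.

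Since Crem and Rfx genes were among those that fell, promoters from RefSeq on build GRCm38.p6, from 250 bases before to 50 after each gene start, were searched on both strands for their binding motifs. The cAMP response element TGACGTCA was in 1 of 28 matched round spermatid promoters and 1 of 25 matched elongating spermatid promoters, against 1.88% of all 27025 promoters of the same length. Both are shown, as the members with the whole element, and the capitals mark it. It starts 50 bases before the start of Ccin, which encodes calicin of the sperm head skeleton (chromosome 4, from 43983443 to 43983472, plus strand), and 96 bases before that of Izumo1 (chromosome 7, from 45621704 to 45621733, plus strand).
Ccin: catccattctaTGACGTCAccctctctccc
Izumo1: ctgccaccctaTGACGTCAcgatgggatgg
Ccin, named for its promoter, was at 9145 and 10393 normalized counts in 10xPerf and at 102 and 44.7 in 10xBulge (log2 fold change -7.15).

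The shorter site TGACG, which is part of the full element, was in 25% of the round spermatid promoters and in 16% of those of elongating spermatids, against 21% of all promoters. The windows of Tssk6 (chromosome 8, from 69902100 to 69902126, plus strand) and H1f7 (chromosome 15, from 98257472 to 98257498, minus strand) are shown as examples from the genes with the largest falls, with the shorter site in capitals.
Tssk6: ccaaggccgagTGACGcccgcagtcac
H1f7: agccatggttaTGACGattacactggc
In the dynein list, 8 of 22 matched promoters (36.4%) held GTTGCC and 10 (45.5%) held CAACTG, against 12.7% and 13.6% of all promoters. GTTGCC was also in 25% of the sperm tail and 20% of the elongating spermatid promoters. Over the 10 lists in which motifs could be counted, the share ranged from 0% to 36.4% for GTTGCC and from 0% to 45.5% for CAACTG, both highest in the dynein list, and from 5.88% to 54.5% for TGACG, highest in the stress response list. GTTGCC is part of the X-box of RFX factors, and CAACTG matches the core that MYB factors recognise. A window was taken only for a dynein list member called lower with GTTGCC before its start, which Dnah10 alone met. Any link between the motif and the falls was not tested. Dnah10, which fell by 1.48 on the log2 scale, has GTTGCC 20 bases before its start (chromosome 5, from 124725054 to 124725081, plus strand), shown in capitals.
Dnah10: gcgctggcgccGTTGCCcaggtccccgt
A match to these letters is a description of the window and was not tested as a binding site.

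Lists of meiotic genes had medians from -0.45 to -0.05. In the list of meiotic prophase, synapsis and recombination, 5 of 31 members were lower, none was higher, and the median was -0.05. The 5 were cohesin subunits of meiosis, Rec8 and Smc1b, and the synaptonemal complex genes Syce1, Syce2 and Syce3. Rec8 was at 3116 and 3121 in 10xPerf and at 886 and 285 in 10xBulge (log2 fold change -2.63, adjusted p = 0.00696, limma). Syce2 and Syce1, which hold the centre of the synaptonemal complex together, had -1.89 and -1.54. Sycp3, of the chromosome axis, was at 4890 and 3566 against 2018 and 4294, which overlapped (log2 fold change -0.50), and Dmc1 and Spo11, which pair strands and cut DNA in recombination, were at 1.15 and 0.42 and did not pass. With library totals the median of this list was 0.20, and with widely expressed genes as reference it was -0.24, so that its sign rests on the scaling. The count of lower calls rests on the 10xPerf libraries, since none was called without N3 and 1 without N4.

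In late pachytene and diplotene spermatocytes 4 of 19 members were lower, none higher, and the median was -0.45. The 4 were Calr3 at -5.54, a chaperone for sperm surface proteins, Spag6 at -3.68, a central pair protein of the axoneme, Pgk2 and the cell cycle phosphatase Cdc25c at -1.14. Other genes that begin at this stage did not pass, among them Hspa2 at -0.38, Ybx2 at -0.77, Clgn at -0.82 and Ccna1 at -1.05. Genes of the meiotic divisions did not pass in 28 of 31 cases, with Cdc25b higher at 1.38, Cdc25c and Cdc27 lower at -1.14 and -1.17, and a median of -0.16. No gene of the divisions was called without N3 or without N4.

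The piRNA pathway had 6 lower (20.7%) and 5 higher (17.2%) members of 29, with a median of 0.06. These shares were near the 18.1% and 16.2% of all protein-coding genes. Piwil1, which encodes MIWI, was at 21158 and 21353 in 10xPerf and at 35738 and 17380 in 10xBulge, which overlapped (log2 fold change 0.23, 95% interval -0.81 to 1.27). Piwil2, which encodes MILI, was at 0.78 and did not pass. The GTSF1 family, whose founding member raises the rate of slicing by PIWI proteins, fell in all 3 members: Gtsf1l went from 9663 and 12283 to 383 and 108 (log2 fold change -5.73), Gtsf2 from 1986 and 1949 to 177 and 173 (log2 fold change -3.48), and Gtsf1 from 8909 and 11596 to 3855 and 3463 (log2 fold change -1.48, adjusted p = 0.0203, limma). In these 3 genes wild type lay nearer to 10xPerf. Kif17, a kinesin of the spermatid, had -5.67, and Spocd1, of the nuclear pathway in fetal germ cells, had -2.87. The 5 higher members were Fkbp6, Piwil4, Pnldc1, Prmt5 and Exd1, between 1.43 and 1.19, and none of the piRNA pathway members was called higher with widely expressed genes as reference or without N3. Without N4 or N5 the count of higher calls was 1.

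Of the genes of YTHDC2 and of the m6A mark that its family reads, 20 of 23 did not pass and the median was 0.29. Meioc, the partner of YTHDC2 in meiotic entry, was at 0.60 and did not pass, nor did Rbm46 at 0.58, Mettl3 at 0.76 or Mettl14 at 0.28, the last pair encoding the m6A methyltransferase. Igf2bp3, a reader protein, fell from 6803 and 6359 to 1133 and 1122 (log2 fold change -2.54), and the demethylase gene Fto had -1.45. Ythdf1, a cytoplasmic reader, was called higher at 1.00. No member was higher without N3, N4 or N5 and 2 were without N6, while 1 was lower without N3, N4 or N6.

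Genes of mRNA storage and translation went both ways, with 5 of 26 higher (19.2%), 6 lower (23.1%) and a median of 0.00. These shares were near the 16.2% and 18.1% of all protein-coding genes. Fxr1, which activates translation of stored mRNAs in spermatids, went from 27225 and 22262 to 3363 and 5308 (log2 fold change -2.54). Papolb and Pabpc2, a poly(A) polymerase and a poly(A) binding protein of the testis, had -1.86 and -1.64. Cpeb1, which regulates poly(A) tails in early meiosis, went from 358 and 656 to 1592 and 1697 (log2 fold change 1.76), and its relative Cpeb2 had -1.54. Pabpc1, the general poly(A) binding protein, and Ybx2, which packages stored mRNAs, were at -0.43 and -0.77 and did not pass. Of this list none was higher and 1 lower without N3, 1 higher and 3 lower without N4, and 3 were higher without N5 or N6.

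Spermatogonial genes lay on the higher side. In the undifferentiated spermatogonia list 7 of 16 were higher and 1 lower, with a median of 0.87, and in the differentiating list 4 of 13 were higher and none lower, with a median of 1.04. The widely expressed genes also had a median of 0.87. With those genes as reference 2 undifferentiated and 1 differentiating member were called higher, and the medians were 0.68 and 0.85. Ret, the receptor through which GDNF maintains stem cells, was at 66.9 and 105 in 10xPerf and at 495 and 277 in 10xBulge, and wild type at 256 and 191 stood between them (log2 fold change 2.13, adjusted p = 0.0101, limma). Foxo1, a regulator of spermatogonial stem cells, had 1.63. Kit, the receptor that marks differentiating spermatogonia, was at 1119 and 1807 against 5556 and 4738, with wild type at 1652 and 1473 (log2 fold change 1.85, adjusted p = 0.00822, limma). Zbtb16, Sall4, Etv5 and Id4 had 1.25, 1.19, 1.04 and 1.03, while Gfra1, the co-receptor of RET, was at 0.45 and did not pass. Without N3 no member of either list was called higher, and the medians were 0.58 and 0.59. In the undifferentiated list 3 were higher without N4 and 4 without N5, and in the differentiating list 1 was higher and 1 lower without N5. The single lower gene, Lhx1, was at 249.7 and 254 in 10xPerf and at most at 8.67 in every other library, so that here 10xPerf stood apart from wild type.

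Of all the lists, that of Sertoli cells had the largest share of higher calls: 19 of 25 rose, none fell, all 25 had a log2 fold change over 0, and the median was 1.24. Shbg, which encodes the androgen-binding protein, was at 297 and 412 in 10xPerf and at 3330 and 1682 in 10xBulge (log2 fold change 2.75 ± 0.45, SE; adjusted p = 0.0015, limma; mean 7.07-fold higher), with wild type at 899.7 and 978 between the lines. Gata1, a factor of Sertoli cells, had 1.65, and Amh and Inha, hormones of these cells, had 1.62 and 1.55. Fshr, the receptor for follicle-stimulating hormone, was at 169.6 and 269.7 against 667 and 526 (log2 fold change 1.47). Sox9 and Kitl were at 1.08 and 0.63 and did not pass. Only 1 member was called higher without N3, 8 without N4 and 4 without N5. The summed count of the list was 80243 and 114744 in 10xPerf and 340676 and 186941 in 10xBulge.

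Leydig cell and steroidogenic genes showed the same direction, with 14 of 20 higher, none lower and a median of 1.53. Insl3, a hormone of Leydig cells, was at 17425 and 29099 in 10xPerf and at 130170 and 76580 in 10xBulge, with wild type at 23936 and 42337 (log2 fold change 2.15, adjusted p = 0.0136, limma). Lhcgr, the receptor for luteinizing hormone, had 1.94, and the enzymes Hsd3b6, Hsd17b3, Cyp11a1 and Cyp17a1 had 2.19, 1.95, 1.80 and 1.49. Hsd3b6 has a close relative in Hsd3b1, which had 1.74, and reads shared by the pair may be split between them. Star, which brings cholesterol into the mitochondrion and is the acutely regulated step, was at 3440 and 6714 against 8128 and 2977, which overlapped (log2 fold change 0.03, 95% interval -1.50 to 1.57). The higher members numbered 1 without N3, 8 without N4 and 7 without N5.

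Cholesterol genes were higher in 9 of 28 cases and lower in none, with a median of 0.94. Abca1, which exports cholesterol, was at 3821 and 5807 against 24630 and 17655 (log2 fold change 2.15), and Soat1, which stores it as esters, and Npc1 and Scap, which move and sense it, had 1.96, 1.51 and 1.78. Fdft1, which makes squalene, was at -0.90 and did not pass. The count of higher calls was 1 without N3, 5 without N5, 3 with widely expressed genes as reference and 16 with library totals, and 1 gene was lower without N5.

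Immune genes lay on the higher side, led by antigen presentation with 10 of 14 higher and 2 lower and a median of 1.85. H2-Aa, an MHC class II chain, was at 154 and 259.5 in 10xPerf and at 1384 and 966 in 10xBulge, with wild type at 399 and 417 (log2 fold change 2.53, adjusted p = 0.00208, limma). Ciita, the master regulator of class II genes, was at 7.45 and 7.21 against 40.9 and 44.9 (log2 fold change 2.40). Cd74, the invariant chain of class II, had 2.19. The class I gene H2-D1 and the peptide transporters Tap2 and Tap1 had 2.46, 2.88 and 1.68. For H2-D1, H2-Ab1 and other genes of this family, reads may be shared between relatives. H2-Ab1 was at 399 and 583 in 10xPerf and at 2806 and 1396 in 10xBulge, and wild type, at 3655 and 2184, lay with 10xBulge. The lower members were Nlrc5, an activator of class I genes, at -1.94, and H2-DMa, a class II peptide loader, at -0.99. In this list 4 were higher and none lower without N3, and 8 were higher and 1 lower without N4 or N5. Without N6, 11 were higher and none lower.

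Macrophage genes were higher in 14 of 24 cases and lower in 2, with a median of 1.34. Ctss, a protease of antigen-presenting cells, was at 154 and 282 against 944 and 861 (log2 fold change 2.11), and the complement genes C1qc, C1qa and C1qb had 1.70, 1.63 and 1.26. Csf1r and Adgre1, which define macrophages, had 1.38 and 1.17. Aif1, which encodes IBA1, went the other way, from 6714 and 6758 to 144 and 77.6, a log2 fold change of -5.98, and so did Msr1, a scavenger receptor, at -2.33. Without N3 none was called higher and 1 lower, and without N5 the higher calls numbered 5. The summed count of the list, in which Aif1 is included, was 16026 and 21093 in 10xPerf and 32268 and 21362 in 10xBulge.

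Interferon and acute phase genes were higher in 9 of 28 cases and lower in none, with a median of 0.83. None was called higher without N3, 5 were without N5 and 4 with widely expressed genes as reference. Chemokine and acute phase genes were among the higher ones. Lcn2, a siderophore-binding protein, was at 6713 and 11798 against 44744 and 22546 (log2 fold change 1.84). Ccl2 and Cxcl10, which attract monocytes and T cells, had 2.82 and 2.71 but reached at most 19.7 and 24.3 normalized counts. Among the interferon-induced genes that did not pass were Ifit1 at -0.73, Isg15 at 0.78 and Irf7 at 0.92. Hp, the acute phase protein haptoglobin, was called at 4.17, with 10xBulge at 582 and 19.7, so that N5 was far over N6. In this gene 10xPerf was at 4.38 and 5.89 and wild type at 57.4 and 100, so that wild type lay between the 10xBulge libraries.

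The p53 response and apoptosis list had 11 of 27 higher, 1 lower and a median of 1.00. The higher calls numbered 0 without N3, 4 without N4, 5 without N5, 7 without N6 and 3 with widely expressed genes as reference. Phlda3 and Btg2, both p53 targets, had 2.15 and 1.89, Apaf1, of the apoptosome, had 1.83, and Bax, Trp53 and Cdkn1a had 1.34, 1.12 and 1.15. Mdm2, the ubiquitin ligase for p53, was at -0.45 and did not pass. Bcl2l11, which encodes the pro-apoptotic protein BIM, was the lower member, from 1505 and 2306 to 221 and 197 (log2 fold change -3.15). Stress genes had 6 higher and 6 lower of 25 (24% each) and a median of 0.50, the lower share being near the 24.1% of all genes. None was higher with widely expressed genes as reference, and the median was 0.35 without N3 and -0.18 without N5. Hspa1l, the HSP70 of spermatids, was at 27239 and 32706 against 168 and 73.4 (log2 fold change -8.05), while the heat shock genes Hspb1 and Hspa1b had 1.46 and 1.45 and the oxidative stress genes Nqo1 and Hmox1 had 1.64 and 1.17.

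The lists of connective tissue, vessels, junctions and retinoic acid had medians from 0.54 to 0.90. Collagens and matrix had 10 of 31 higher, 2 lower and a median of 0.87, with Lamb2 at 1.89, Lamc1 at 1.71 and Col18a1 at 1.62, all of basement membranes, and Col14a1 lower at -3.41. Of this list 22 were higher with library totals, 4 with widely expressed genes as reference, 0 without N3, 5 without N4, 3 without N5 and 15 without N6. Peritubular muscle and vessels had 5 of 22 higher, among them Acta2 of the contractile cells around the tubule at 1.32, 1 lower and a median of 0.54. That gene, Actg2, a smooth muscle actin, went from 9217 and 10396 to 397 and 228 (log2 fold change -5.02). Kdr and Tie1, receptors of endothelial cells, were at 0.51 and 0.80 and did not pass. The blood-testis barrier had 4 of 20 higher and a median of 0.70, with Ctnnb1 at 1.61 and Cldn11 at 1.38, and Nectin3, an adhesion protein of spermatids, lower at -1.61. In retinoic acid signalling 5 of 20 were higher and the median was 0.90, with Dhrs3, a retinal reductase, at 1.99, and the receptors Rxrg and Rarb were lower at -4.07 and -2.37. In the peritubular, barrier and retinoic acid lists no gene was called higher without N3, 1 in each was without N5, and 8, 7 and 7 were without N6. Without N4 the counts were 2, 3 and 3. Of the blood list 1 of 9 was higher, though not without N3, and the median was 0.59. The mitochondrially encoded genes had a median of -0.16 and 1 of 15 lower, mt-Rnr1, a ribosomal RNA, at -1.37. Their count of lower calls was 0 without N3, N4 or N5 and 3 without N6.

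The higher calls of these lists must be read with other values that moved with them. The widely expressed list, which holds genes such as Actb and Hprt that most cells use, had 6 of 18 higher, none lower and a median of 0.87, with none higher without N3 and 2 without N4 or N5. Its summed count was 255003 and 346569 in 10xPerf and 544374 and 315010 in 10xBulge. With those genes as the reference, each library was scaled by their median level, which shifted the median of all genes by only -0.19. A shift of that size could remove little of their rise, and the median of their own list was then 0.68. Under this scaling 3 Sertoli, 9 Leydig, 6 macrophage and 7 antigen presentation genes were higher, and the medians of these lists were 1.05, 1.36, 1.15 and 1.66. Without N3 the counts were 1, 1, 0 and 4, with medians of 0.98, 1.13, 1.00 and 1.66, against 19, 14, 14 and 10 with all libraries. Of the 250 tested genes named here, 85 were called higher and 120 lower, and without N3 16 of the former and 91 of the latter were called. The round and elongating spermatid lists had 26 and 28 lower calls with widely expressed genes as the reference, and 25 and 26 without N3, against 27 in each. The part of the scaling in the higher calls was not tested beyond these values. Markers of the epididymis, which could adhere to a dissected testis, were mostly too low to test, and 3 of 14 passed the filter. Of the 14, 7 were at 0 in both 10xBulge libraries and 4 in both 10xPerf libraries. Cst8, a cystatin that spermatids also make, was called lower at -5.38.

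Gene classes differed in the same comparison. Of 4420 lncRNAs tested, 45.1% were lower and 2.53% higher, with a median of -1.17, against 18.1% lower and 16.2% higher of the 17550 protein-coding genes, whose median was 0.17. Pseudogenes were in between on the lower side, with 33.3% of 1618 lower and 7.42% higher. A gene could pass the filter through wild type and 10xPerf alone. Over all genes the lower calls went from 5729 to 3064 when every library had to hold at least 10. The shares by class and by chromosome were not counted under that filter, so its part in them was not tested. The lncRNA 1700027A15Rik was at 12206 and 18282 in 10xPerf and at 11.8 and 2.24 in 10xBulge, a log2 fold change of -11.18 ± 0.63 (SE; adjusted p = 4.68e-06, limma). Itpr3os, a lncRNA named as antisense to a neighbouring gene, was at 3345 and 3065 against 2.75 and 0.982, which is at or under the value of 3 reads in 10xBulge. The library kit keeps strand, while the strand setting of the quantification is not given in the sources used here. Of the genes with no reads in 10xBulge, the protein-coding gene Gm614 was at least 1030-fold lower and the processed pseudogene Gm4735 at least 1163-fold lower than in 10xPerf, with 3 reads a library as the floor. Both were named for this bound after their values were seen.

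**Figure D5:**
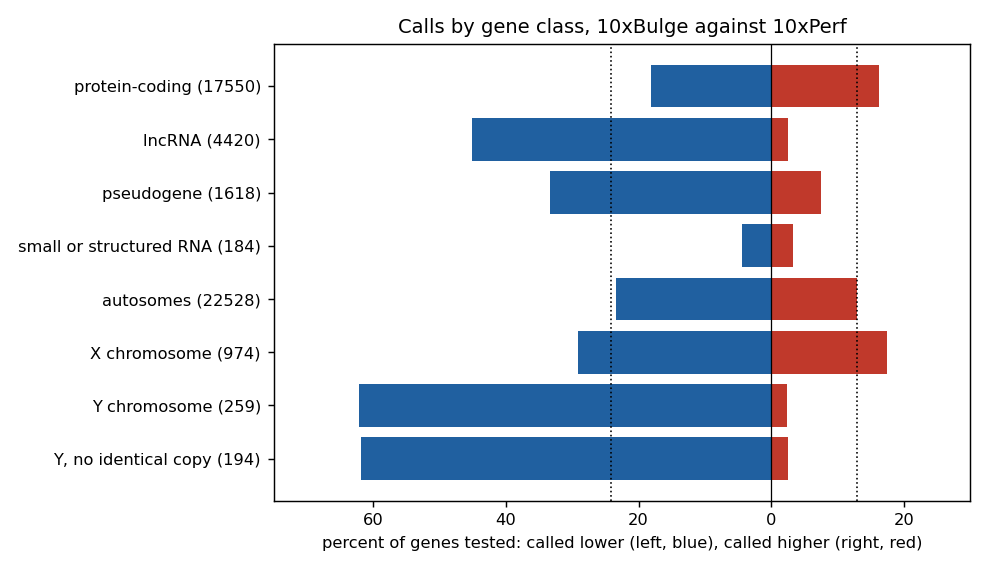
Percentage of tested genes called lower and higher in 10xBulge by gene class and chromosome group, with dotted lines at the values for all genes, 24.1% and 12.9%. The lncRNAs and the genes of chromosome Y reach 45.1% and 62.2% lower, and the lower share of protein-coding genes is under the line for all genes.

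Genes of chromosome Y were lower in 62.2% of 259 cases and higher in 2.32%, with a median of -3.31. Multicopy genes share reads. The 194 genes without an identical copy gave 61.9% lower and 2.58% higher. This leaves in copies that are nearly identical, and the part of shared reads was not tested. Chromosome X had 29.2% of 974 genes lower and 17.5% higher. The following Y genes were named after their values were seen. Rbm31y, a Y-linked gene of an RNA-binding protein, was at 1045 and 832 in 10xPerf and at 5.42 and 1.87 in 10xBulge (log2 fold change -7.77), and Ssty2, of a multicopy spermatid family, was at 649.5 and 746 against 44 and 50 (log2 fold change -3.86). Ddx3y and Uba1y, which are also active outside spermatids, were at 0.17 and 0.78 and were among the Y genes that did not pass. Across the autosomes 23.4% of genes were lower and 12.9% higher, the lower share ranging from 19.2% on chromosome 11 to 30.5% on chromosome 14.

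Among all protein-coding genes with a mean over 100 normalized counts, the largest falls beside those of the lists were in further testis genes. Acte1, an actin of the testis, was at 4496 and 5986 in 10xPerf and at 9.86 and 0 in 10xBulge (log2 fold change -10.62). Bpifa3, a lipid-binding protein gene, was at 3293 and 4490 against 0.895 and 2.87, Nudt16l2 was at 3502 and 7243 against 5.52 and 2.45, and the cystatin gene Cstl1 at 1977 and 2624 against 3.48 and 0. In all 4 wild type lay nearer to 10xPerf than to 10xBulge.

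Over all 3077 higher genes, wild type lay nearer to 10xPerf in 2510 and nearer to 10xBulge in 567. Of the 10 protein-coding genes with the largest rises (mean of at least 100, symbols of the form Gm plus digits or ending in Rik left out), wild type lay nearer to 10xBulge in 7 and nearer to 10xPerf in 3. Serpina3g, a protease inhibitor of a gene cluster with close relatives, was at 25 and 58.7 in 10xPerf, at 6971 and 4466 in 10xBulge and at 2057 and 1750 in wild type, which stood between the lines (log2 fold change 7.15 ± 0.49, SE; adjusted p = 9.29e-06, limma). Gprc5a, an orphan receptor gene, was at 13.4 and 15.8 in 10xPerf, 1150 and 634 in 10xBulge and 461 and 432 in wild type. Pianp, a transmembrane protein gene of neurons, was at 11.7 and 17.3 against 478 and 452, with wild type at 272 and 328. In Timp1 and Bmp4 wild type lay nearer to 10xPerf instead: Timp1, an inhibitor of matrix proteases, was at 10.3 and 17.9 in 10xPerf, 390.3 and 349.6 in 10xBulge and 19.1 and 43.8 in wild type (log2 fold change 4.66), and Bmp4, a secreted signal, was at 21.8 and 21.7, 764 and 331, and 59.7 and 58.9 (log2 fold change 4.47).

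In all, 127 called genes had 10xBulge within 2-fold of wild type and 10xPerf more than 8-fold from it, 57 of them higher and 70 lower in 10xBulge. Pseudogenes made up 40.9% of these genes, against 7.47% of all genes called. The mirror pattern, with 10xPerf within 2-fold of wild type and 10xBulge more than 8-fold from it, held for 2654 genes, of which 2629 were lower and 9.8% were pseudogenes. The pseudogene Gm13394 was at 0 in both 10xPerf libraries, at 10714 and 5654 in 10xBulge and at 4818 and 3734 in wild type, which made it at least 2699-fold higher in 10xBulge. The ribosomal pseudogenes Rps18-ps6 and Rps18-ps5, listed as protein-coding in the table, were at least 493-fold and 411-fold higher by the same floor. They resemble their parent gene, so that their counts are uncertain. In the other direction Klrb1, a receptor gene of natural killer cells, was at 548 and 721 in 10xPerf, 0 in both wild-type libraries and 0.87 and 0 in 10xBulge. Klb, the co-receptor for FGF21, was at 1288 and 1706 in 10xPerf, 112 and 44.7 in 10xBulge and 105 and 114 in wild type. Gm13394 and Klb were named after their values were seen. The 127 genes lay on 21 chromosomes. Chromosome Y held 9 of them among its 259 tested genes (3.47%), the largest share, and chromosome 14 held 15 among 1043 (1.44%).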

How the data were processed

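Total RNA of adult testes was sequenced after ribosomal RNA depletion (single reads) in 2 libraries each of wild type, 10xPerf and 10xBulge. The other samples of the series, immunoprecipitated small RNAs, were not analysed here. The authors assigned reads to transcripts of Ensembl annotation on GRCm39 with salmon and used DESeq2 to make the values they deposited, normalized read counts, a signal that is comparable between libraries and no longer whole reads. Versions of both tools are not given in the sources used here. Deposited columns of overall means and of the authors' own fold changes and adjusted p-values against wild type were not used.

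The normalized counts were put on the scale log2(value + 1). A gene was tested if 2 or more libraries held 10 or more normalized counts; the test was made with limma 3.58.1 (R 4.3.3; moderated, with a mean-variance trend, all 6 libraries in the fit, 1 term per genotype), with Benjamini-Hochberg adjustment over all genes tested. p-values measure the spread between 2 libraries a genotype. Genes of identical sequence were taken from the table, and 74 called genes share sequence with another. On simulated libraries of 23782 genes drawn for this comparison, 80% of 200 genes changed by 4 on the log2 scale were recovered, 0% at a change of 2, 8.05% of the 174 calls were of unchanged genes, and no call was made without changes. In the data 8806 genes were called, so the threshold was less strict than in the simulation and these shares do not carry over. Counts under 3 reads (2.73 to 3.63 normalized counts) were treated as a floor, which covers counting error only.

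The gene lists and the genes compared were chosen with earlier results of these data known. Named genes were Ythdc2, the up to 6 called members of each list with the smallest p, up to 3 uncalled members of highest mean where fewer than 50% were called, the 10 highest and 10 lowest protein-coding and 5 and 5 lncRNA genes (called, libraries apart, mean of at least 100), and 5 and 5 genes with wild type nearer to 10xBulge; others were added after their values were seen. Promoters from RefSeq (GRCm38.p6) were matched by symbol for 15925 of 23734 tested symbols (67.1%), so motifs were counted only in lists with at least 80% matched (Python 3.11.15). Positions in the GRCm39 table were not mixed with those of GRCm38.p6. Some genes of the lists are not reported here by name.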

Additional observations from a re-analysis of the deposited data

How the results depend on the processing

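Of the 32 round and 30 elongating spermatid genes, 25 to 28 and 26 to 30 were called lower under every alternative that kept all of them, and 24 of 29 and 26 of 27 when every library had to hold at least 10. The number of higher genes was 5122 with library totals, 755 with widely expressed genes as reference and 1725 at an adjusted p under 0.05, and 418 to 3286 when each library was left out in turn. That of lower genes was 3064 when every library had to hold at least 10, and 3730 to 5812 with each library left out. The median of all genes, -0.07, was 0.18 with library totals, -0.18 with the upper quartile, -0.26 with widely expressed genes as reference and 0.13 when every library had to hold at least 10, which are shifts of 0.25, -0.11, -0.19 and 0.20. Counts of all higher and of all lower genes under the other alternatives (upper quartile, trimmed mean, pseudocounts of 0.1 and 10, a filter above 1, the 2 lines alone, no trend, a fold of at least 2, removal of the GC trend) were within 1.5 times the reported ones. When every library had to hold at least 10, 2850 genes were higher beside the 3064 lower ones. Counts within a list could move more: 12 Sertoli genes were higher with no trend, against 19.

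The median of undifferentiated spermatogonia was 1.12 with library totals and 0.68 with widely expressed genes as reference (0.58 to 0.99 with each library left out). That of meiotic prophase was 0.20 with library totals, -0.16 with the upper quartile, -0.24 with widely expressed genes, 0.18 with the GC trend removed and -0.19 without genes of another list (-0.26 to 0.10 with each library left out). That of late pachytene spermatocytes was -0.20 with library totals and -0.80 to -0.38 with each library left out, and that of round spermatids -5.31 to -4.49. The Sertoli median was 1.49 with library totals, 1.13 with the upper quartile and 1.05 with widely expressed genes (0.95 to 1.49 with each library left out), and the macrophage median 1.58 with library totals, 1.15 with widely expressed genes and 1.17 with the GC trend removed (1.00 to 1.65).

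Of the 250 genes named, none of the 205 called changed sign. Some that were not called did. Star was at -0.078 with the upper quartile, -0.16 with widely expressed genes, and between -0.69 and 0.76 with each library left out. Ddx3y was at -0.014 with widely expressed genes and Sycp3 at 0.092 with the GC trend removed. With each library left out Ddx3y ranged from -0.91 to 1.26, Sycp3 from -1.05 to 0.040, Ythdc2 from -0.034 to 1.00, Piwil1 from -0.29 to 0.75, Hspa2 from -0.99 to 0.23, Zfp541 from -1.51 to 0.19 and Zpbp from -0.95 to 0.29. The causes were not tested. No paired analysis was possible because the libraries of the genotypes share no replicate number.

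GC content followed the ratio of libraries within genotypes more closely (Spearman's rho across 12426 genes of -0.61 for N2 over N1, 0.24 for N4 over N3 and -0.52 for N6 over N5) than that between the lines (0.14). With 2 libraries a line, changes of 2 on the log2 scale were not recovered on simulated data when 200 genes changed. In the data 8806 genes were called, so the threshold was less strict and smaller changes were also called. A gene not called is still not shown to be alike.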
